A study of Homo sapiens with 12 samples.

Results

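Sphingolipid synthesis was followed through 10 genes, SPTSSA, SPTSSB, SPTLC1, SPTLC2, SPTLC3, CERS2, CERS6, DEGS1, UGCG and SGMS1, of which 9 were measured among 18404 genes and SPTLC3 was not analysed here. Each gene was read from a probe set that the platform annotation gives to it alone, and each of the 9 had 1 such probe set. The genes were listed for their role in the pathway with earlier results of these data known, and SPTSSB was chosen by its measured level, which differed between all 3 groups. Its values are therefore a description, and no test of them is given.

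The arrays came from tumor spheroids grown for 10 days in stirred flasks from HepG2 cells, an established line of human liver cancer. They form 3 groups of 4 arrays: HIF-2α knockdown, HIF-1α knockdown and wild type. HIF-2α (gene EPAS1) and HIF-1α (gene HIF1A) are transcription factor subunits that accumulate when oxygen is low. The knockdown samples carry sh2alpha and sh1alpha in their labels, while the sources used here give no number of clones and no control construct for wild type cells. The design text speaks of different spheroid experiments, so the p-values below measure the spread between such cultures of 1 cell line.

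Sphingolipids are membrane lipids and signals built on a long-chain base. Serine palmitoyltransferase makes this base from serine and a fatty acyl-CoA in the endoplasmic reticulum, with a catalytic core of SPTLC1 and either SPTLC2 or SPTLC3. A small subunit, SPTSSA or SPTSSB, gives the enzyme its full activity and shapes which acyl-CoA it takes, and SPTSSB favours a longer one than SPTSSA does. Ceramide synthases such as CERS2 and CERS6 add a second fatty acid, DEGS1 puts in the double bond that turns dihydroceramide into ceramide, and UGCG and SGMS1 turn ceramide into glucosylceramide and sphingomyelin.

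Since both knockdowns lower a DNA-binding factor, the stretches upstream of the genes of the small subunits are shown. They hold the 250 bases before the RefSeq start site on assembly GRCh38.p14, read 5′ to 3′ on the minus strand, which carries both genes. Capitals mark the hypoxia response element core, searched as ACGTG and GCGTG on both strands.
SPTSSB, chr3:161371518-161371767: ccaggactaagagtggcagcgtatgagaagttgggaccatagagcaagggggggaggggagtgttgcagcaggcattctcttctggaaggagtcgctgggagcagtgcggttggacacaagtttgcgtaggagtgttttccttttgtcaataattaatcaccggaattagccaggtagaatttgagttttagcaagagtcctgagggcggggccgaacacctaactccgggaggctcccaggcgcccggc
SPTSSA, chr14:34462241-34462490: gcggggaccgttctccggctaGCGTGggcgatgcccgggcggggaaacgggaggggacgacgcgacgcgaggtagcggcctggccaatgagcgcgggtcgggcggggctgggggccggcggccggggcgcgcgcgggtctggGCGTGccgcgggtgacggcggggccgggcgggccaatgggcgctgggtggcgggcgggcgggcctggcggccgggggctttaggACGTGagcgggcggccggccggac
The SPTSSB stretch held 0 matches and the SPTSSA stretch held 3. RefSeq stretches were found for 8 of the 10 genes, and those of 5 genes held at least 1 match. Of all 35116 stretches of this length in the table, 43.2% held a match, so a match is common and marks no site of binding.

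The values are the authors' log2 values, and a difference of 1 on this scale is a doubling. Levels of different probe sets are not strictly comparable with each other, so each difference here is of 1 gene between groups. Where a level is set beside percentiles of all genes or beside other probe sets, that is a rough guide alone. Both targeted transcripts fell in their own knockdown. EPAS1 had a mean of 9.89 in HIF-2α knockdown and 11.01 in wild type, with no overlap (log2 difference -1.12, SE 0.09, limma adjusted p = 0.000206). HIF1A had a mean of 9.46 in HIF-1α knockdown and 10.70 in wild type, also with no overlap (log2 difference -1.23, SE 0.15, limma adjusted p = 0.00241). The hepatocyte label was met, since 7 of 9 hepatocyte markers, albumin and alpha-fetoprotein among them, lay above the 95th percentile of genes on every array. Of the other cell types, 5 of 6 fibroblast, 3 of 4 endothelial and 4 of 6 leukocyte markers lay below the array median on every array, among them PTPRC at 6.41 to 6.70. LYZ, lysozyme, was the 1 leukocyte marker above the 95th percentile on every array.

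SPTSSB separated the 3 groups. In HIF-2α knockdown it had log2 values of 8.75, 8.70, 8.43 and 8.41 in replicates 1 to 4. In HIF-1α knockdown the values were 6.95, 7.04, 6.81 and 7.01. In wild type they were 7.86, 7.94, 7.97 and 7.69. Every HIF-2α knockdown array thus lay above every wild type array, and every HIF-1α knockdown array below every wild type array. The lowest HIF-2α knockdown array was 0.45 above the highest wild type array, and the highest HIF-1α knockdown array was 0.65 below the lowest wild type array. In bulk spheroids, fewer cells with a transcript and less of it per cell cannot be told apart.

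The means of SPTSSB were 8.57 ± 0.18 in HIF-2α knockdown, 6.95 ± 0.10 in HIF-1α knockdown and 7.86 ± 0.12 in wild type (SD, n = 4 each). Against wild type it was 1.64-fold higher in HIF-2α knockdown, a log2 difference of 0.71 with an SE of 0.09 and a 95% confidence interval from 0.52 to 0.90. In HIF-1α knockdown the log2 difference from wild type was -0.91 with an SE of 0.09 and an interval from -1.10 to -0.72. These comparisons share the wild type arrays. Set against each other, the knockdowns differed by 1.62 on the log2 scale, HIF-2α minus HIF-1α knockdown (SE 0.09, interval from 1.43 to 1.81). The intervals describe the values by which SPTSSB was chosen and are no test of them.

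By size, this last difference of SPTSSB was number 3 of 18404 genes, where 28 genes differed by at least 2-fold in either direction. It was number 39 for HIF-2α knockdown against wild type and number 14 for HIF-1α knockdown against wild type. SPTSSB was chosen by these values, so its places by size are a description and no test. The SPTSSB values in HIF-1α knockdown were near the lower quartile of all genes, which lay between 6.852 and 6.996 over the 12 arrays. Some markers of other cell types gave values of this order, with COL3A1 at 7.01 to 7.22, CDH5 at 6.84 to 7.13 and VWF at 6.77 to 6.90 over the 12 arrays. Others on those lists lay lower, such as DCN at 6.36 to 6.66, LUM at 6.29 to 6.54 and PTPRC at 6.41 to 6.70. Others again lay higher, such as PECAM1 at 7.73 to 8.49 and CD68 at 9.74 to 10.35. The table holds no detection calls, so whether SPTSSB was above background on the 4 HIF-1α knockdown arrays is not known. No fold is given against those arrays, and both differences and places by size that involve them are sizes on the deposited scale alone.

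**Figure D1:**
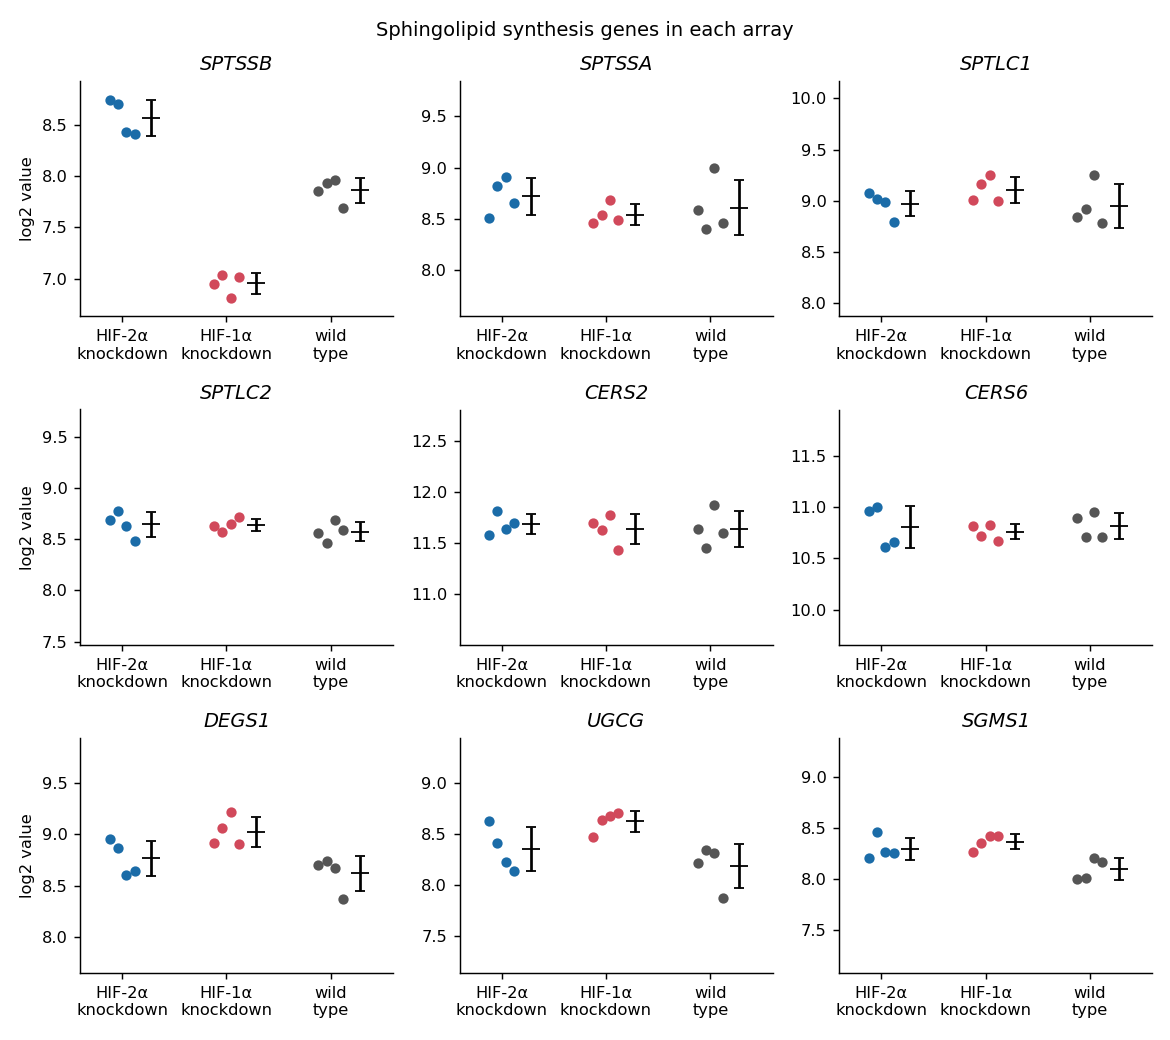
Log2 values of the 9 measured genes, 1 point per array (replicates 1 to 4 from left to right), with the mean and SD of each group beside the points; every panel spans the same log2 range. SPTSSB lies at 8.41 to 8.75 in HIF-2α knockdown, 6.81 to 7.04 in HIF-1α knockdown and 7.69 to 7.97 in wild type, while the groups of SPTSSA, SPTLC1, SPTLC2, CERS2 and CERS6 overlap.

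The other subunits of the enzyme did not show this separation. SPTSSA, the small subunit that can take the place of SPTSSB, had values of 8.50, 8.82, 8.91 and 8.65 in HIF-2α knockdown. It had 8.46, 8.54, 8.68 and 8.49 in HIF-1α knockdown. In wild type it had 8.58, 8.40, 8.99 and 8.46. All 3 groups of SPTSSA overlapped, and wild type replicate 3 was its highest array. The SPTSSA difference from wild type was 0.11 in HIF-2α knockdown (SE 0.12, interval from -0.15 to 0.37, limma adjusted p = 0.791). In HIF-1α knockdown it was -0.07 (SE 0.12, interval from -0.32 to 0.19, limma adjusted p = 0.872). Between the knockdowns, HIF-2α minus HIF-1α, it was 0.18 (SE 0.12, interval from -0.08 to 0.44, limma adjusted p = 0.625). These differences had the same signs as those of SPTSSB. The intervals leave room for SPTSSA to be up to 1.29-fold higher in HIF-2α knockdown than in wild type. Against HIF-1α knockdown they leave room for up to 1.35-fold. Whether SPTSSB and SPTSSA differed in their response was not tested.

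SPTLC1, the subunit common to all forms of the enzyme, had means of 8.97 ± 0.12 in HIF-2α knockdown, 9.10 ± 0.12 in HIF-1α knockdown and 8.95 ± 0.21 in wild type (SD, n = 4 each). SPTLC2, which carries the catalytic site, had means of 8.64 ± 0.12, 8.64 ± 0.06 and 8.57 ± 0.09 in the same groups. Neither passed in any of the 3 comparisons. The SPTLC1 difference in HIF-1α knockdown was 0.16 against wild type (SE 0.10, limma adjusted p = 0.585), the largest of the 6 differences of these 2 genes, and all 6 intervals included 0. Those of SPTLC2 were the narrower, from -0.08 to 0.22 in HIF-2α knockdown and from -0.08 to 0.21 in HIF-1α knockdown, both against wild type.

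The ceramide synthases also overlapped between all groups. CERS2, the enzyme for very long acyl chains and the main form in liver, had means of 11.68 ± 0.10 in HIF-2α knockdown, 11.64 ± 0.15 in HIF-1α knockdown and 11.64 ± 0.18 in wild type (SD, n = 4 each). CERS6, which prefers a shorter acyl chain, had means of 10.81 ± 0.20, 10.76 ± 0.07 and 10.81 ± 0.13. Its HIF-2α knockdown arrays fell into 2 high ones, replicates 1 and 2 at 10.961 and 11.002, and 2 low ones, replicates 3 and 4 at 10.606 and 10.655. The differences of CERS2 and CERS6 lay between -0.06 and 0.05 over the 3 comparisons, and no limma adjusted p was below 0.861.

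DEGS1, UGCG and SGMS1, which act on ceramide or its precursor, had higher values on every HIF-1α knockdown array than on any wild type array, but none passed the test there. DEGS1, the dihydroceramide desaturase, had values of 8.91, 9.06, 9.21 and 8.91 in HIF-1α knockdown, against 8.70, 8.74, 8.67 and 8.37 in wild type. The DEGS1 difference was 0.40 (SE 0.10, limma adjusted p = 0.083). UGCG, the glucosylceramide synthase, had values of 8.47, 8.64, 8.68 and 8.70 in HIF-1α knockdown, against 8.21, 8.35, 8.32 and 7.87 in wild type. The UGCG difference was 0.44 (SE 0.12, limma adjusted p = 0.0944). For both genes wild type replicate 4 was the lowest array of all 12.

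SGMS1, the sphingomyelin synthase of the Golgi, had values of 8.27, 8.36, 8.42 and 8.42 in HIF-1α knockdown, against 8.002, 8.008, 8.203 and 8.172 in wild type, a difference of 0.27 (SE 0.07, limma adjusted p = 0.0877). SGMS1 passed in 3 other fits. Its limma adjusted p was 0.0452 without wild type replicate 3, 0.0498 without HIF-2α knockdown replicate 2 and 0.0197 with array weights. HIF-2α knockdown replicate 2 is outside this comparison and enters only the shared estimate of the spread. No other HIF-2α knockdown array was left out singly for this comparison. In HIF-2α knockdown the SGMS1 values of 8.20, 8.46, 8.26 and 8.25 also lay above wild type, by a margin of 0.0015 at the nearest arrays (difference 0.20, SE 0.07, limma adjusted p = 0.243). UGCG passed with array weights alone, at a limma adjusted p of 0.0458. DEGS1 passed in none of the alternatives.

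DEGS1 and UGCG lay between the other groups in HIF-2α knockdown. Their means there were 8.77 ± 0.17 and 8.35 ± 0.22, against 8.62 ± 0.17 and 8.19 ± 0.22 in wild type (SD, n = 4 each), and the arrays overlapped. Between the knockdowns, HIF-2α minus HIF-1α, the difference was -0.26 for DEGS1 (SE 0.10, limma adjusted p = 0.265) and -0.27 for UGCG (SE 0.12, limma adjusted p = 0.303). In each case replicates 1 and 2 of HIF-2α knockdown were above replicates 3 and 4. The same held for SPTSSB, at 8.75 and 8.70 against 8.43 and 8.41.

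**Figure D2:**
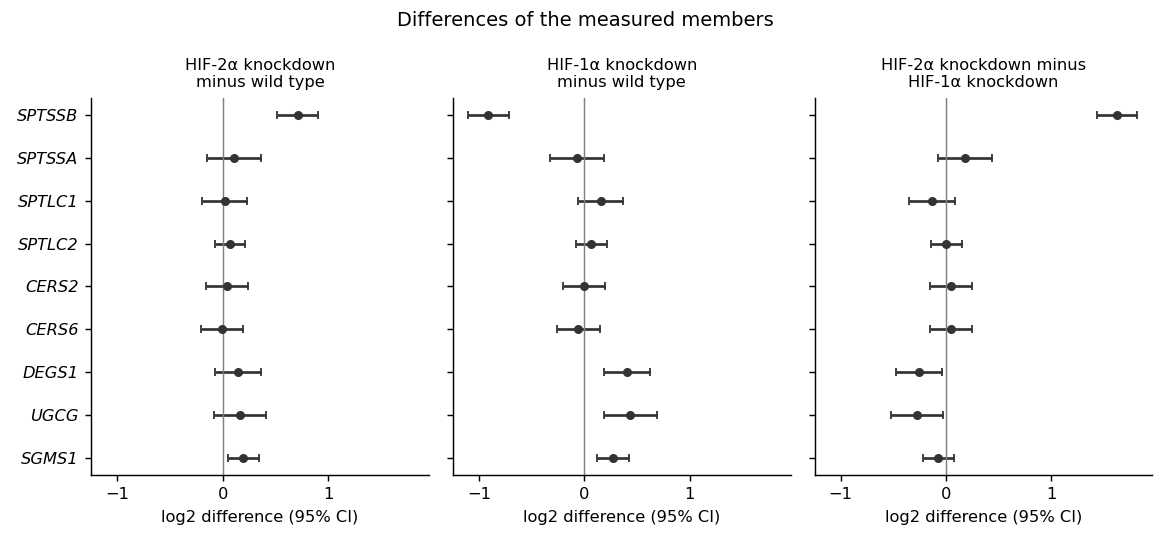
Log2 differences of the 9 measured genes in the 3 comparisons, with points for the difference of group means and bars for limma's 95% confidence interval. SPTSSB stands at 0.71, -0.91 and 1.62, and the other genes lie between -0.27 and 0.44.

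Of the 8 measured genes other than SPTSSB, 0 passed in each of the 3 comparisons by limma, at an adjusted p below 0.05. Over all genes 0.788% were called in HIF-2α knockdown against wild type, 0.962% in HIF-1α knockdown against wild type and 2.77% between the knockdowns, so a count of 0 of 8 is near the background. At an unadjusted p below 0.05 the counts were 1, 3 and 2 of 8. The share of all genes at that level is not given here, so nothing is read from these counts. Groups that did not overlap were found for 1 of 8 genes, SGMS1, in HIF-2α knockdown against wild type, where 5.31% of all genes did so. In HIF-1α knockdown against wild type they were found for 3 of 8, where 7.84% of all genes did so. Between the knockdowns they were found for 0 of 8, where the share of all genes was 9.08%. By direction, 3.4% of all genes lay wholly higher and 1.91% wholly lower in HIF-2α knockdown against wild type, and 5.73% and 2.11% did so in HIF-1α knockdown against wild type. Between the knockdowns the shares were 3.73% and 5.35%. All 3 genes that separated HIF-1α knockdown from wild type were higher, as SGMS1 was in HIF-2α knockdown. SPTSSB, chosen for this, did not overlap in any comparison.

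The means of some gene sets tended lower in the HIF-1α knockdown group. The mean of the 9 hepatocyte markers lay between 12.06 and 12.67 in HIF-2α knockdown, 11.75 and 12.03 in HIF-1α knockdown and 12.27 and 12.73 in wild type. These markers moved unequally, with FGB at means of 7.97 in HIF-1α knockdown and 9.72 in wild type, and AHSG at 12.69 and 12.92. The mean of 59 ribosomal protein genes lay between 11.29 and 11.77, 11.18 and 11.47, and 11.43 and 11.93 in the 3 groups, with overlap. The part of these means in the differences of SPTSSB, DEGS1, UGCG and SGMS1 was not tested. The dimmest 0.1% of genes lay below 6.46 to 6.47 on 3 arrays, HIF-2α knockdown replicate 4 and wild type replicates 1 and 2, and below 6.22 to 6.34 on the others. With those 3 raised-floor arrays left out, the SPTSSB difference was 0.80 in HIF-2α knockdown and -0.87 in HIF-1α knockdown, both against wild type.

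The wider pathway was read from 8 lists with 76 genes, of which 68 were measured and 8 were not analysed here. Of the 67 genes other than SPTSSB, 1 rose and 0 fell in HIF-2α knockdown against wild type, 1 rose and 0 fell in HIF-1α knockdown against wild type, and 0 rose and 1 fell in HIF-2α against HIF-1α knockdown. Over all genes 0.478% rose and 0.31% fell in the first, 0.815% and 0.147% in the second, and 0.967% and 1.8% in the last of these comparisons, so the counts are near the background. The median difference of the 67 genes was 0.01, 0.03 and -0.04 in these comparisons, against -0.01, 0.00 and -0.01 for all genes. The lists were drawn up with the main results of these data known.

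SHMT1, the cytosolic enzyme that interconverts serine and glycine, rose in HIF-2α knockdown. It had values of 8.89, 8.99, 8.89 and 8.81 in HIF-2α knockdown, against 8.52, 8.37, 8.57 and 8.57 in wild type. No arrays overlapped, and SHMT1 was 1.31-fold higher (log2 difference 0.39, SE 0.07, limma adjusted p = 0.0159). On the 9 arrays outside the raised-floor set, 2 of them wild type, the SHMT1 difference was 0.35 with a limma adjusted p of 0.101. In HIF-1α knockdown SHMT1 differed by 0.18 from wild type (SE 0.07, limma adjusted p = 0.211), and between the knockdowns by 0.20 (SE 0.07, limma adjusted p = 0.141), which passed after quantile normalization (0.22, limma adjusted p = 0.0458). Of the other 6 serine supply genes none passed. Those with the smallest p were SLC1A4, a transporter of serine and other neutral amino acids, at 0.27 in HIF-2α against HIF-1α knockdown (SE 0.09, limma adjusted p = 0.176), and PHGDH, which opens serine synthesis, at 0.24 (SE 0.11, limma adjusted p = 0.348).

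B4GALT6, a lactosylceramide synthase that acts on the product of UGCG, rose in HIF-1α knockdown. Its values were 7.61, 7.51, 7.54 and 7.47 in HIF-1α knockdown, against 7.15, 7.17, 7.21 and 7.29 in wild type. The groups did not overlap, and the log2 difference was 0.33 (SE 0.06, limma adjusted p = 0.0202). B4GALT6 lay at 7.15 to 7.61 over the 12 arrays, below the lowest array median of 7.62. Without detection calls, whether it was above background is not known, and no fold is given. The call was lost when any 1 of 5 arrays was left out, wild type replicates 1 and 2 and HIF-1α knockdown replicates 1, 2 and 3, with limma adjusted p from 0.0547 to 0.0746 and differences from 0.30 to 0.34. B4GALT6 differed by 0.28 with the raised-floor arrays left out (limma adjusted p = 0.188). In HIF-2α knockdown its values of 7.59, 7.39, 7.40 and 7.54 also lay above all wild type arrays, with a difference of 0.28 that did not pass (SE 0.06, limma adjusted p = 0.0517). It passed there after quantile normalization (limma adjusted p = 0.0175), with array weights (0.0488) and without HIF-2α knockdown replicate 2 (0.0496). With the mean of all probe sets per gene the limma adjusted p was 0.0493. B4GALT6 has 1 probe set, so its own values were unchanged in that fit.

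B4GALNT1, the synthase that adds N-acetylgalactosamine to make gangliosides of the GM2 and GD2 kind, separated the knockdowns. It had values of 7.59, 7.54, 7.60 and 7.36 in HIF-2α knockdown, against 8.15, 7.97, 8.02 and 8.11 in HIF-1α knockdown. HIF-2α knockdown was lower (log2 difference -0.54, SE 0.09, limma adjusted p = 0.00569). The HIF-2α knockdown values lay below the lowest array median of 7.62, so no fold is given. Against wild type neither knockdown passed, with differences of -0.23 in HIF-2α knockdown (SE 0.09, limma adjusted p = 0.297) and 0.31 in HIF-1α knockdown (SE 0.09, limma adjusted p = 0.124). Wild type had 7.65, 7.65, 7.67 and 8.05, so replicate 4 lay among the HIF-1α knockdown arrays, and all 4 lay above those of HIF-2α knockdown. In HIF-1α knockdown the B4GALNT1 difference passed without that array (0.40, limma adjusted p = 0.0234) and with array weights (0.32, limma adjusted p = 0.0402).

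ORMDL3, one of the ORMDL proteins that inhibit serine palmitoyltransferase when ceramide is plentiful, had values of 8.14, 8.13, 8.43 and 8.22 in HIF-2α knockdown. It had 8.53, 8.40, 8.73 and 8.61 in HIF-1α knockdown and 8.58, 8.42, 8.68 and 8.63 in wild type. Replicate 3 of HIF-2α knockdown alone reached the lowest arrays of the other groups. The ORMDL3 difference was -0.34 for HIF-2α knockdown against wild type (SE 0.09, limma adjusted p = 0.0896) and -0.34 for HIF-2α against HIF-1α knockdown (SE 0.09, limma adjusted p = 0.0544). Both passed after quantile normalization, with limma adjusted p of 0.011 and 0.0203, and both passed without HIF-2α knockdown replicate 3, at 0.0385 and 0.0249. The second also passed without HIF-1α knockdown replicate 2, at 0.0464. The inhibitor ORMDL2 differed by 0.25 in HIF-1α knockdown against wild type (SE 0.09, limma adjusted p = 0.217).

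The other genes named for the smallest p of their list did not pass. Of 9 measured genes for dihydroceramide and ceramide synthesis, CERS5, another ceramide synthase, differed by 0.36 in HIF-1α knockdown against wild type (SE 0.13, limma adjusted p = 0.207). It passed there without wild type replicate 3 (0.48, limma adjusted p = 0.0442), and in HIF-2α against HIF-1α knockdown without HIF-2α knockdown replicate 1 (-0.47, limma adjusted p = 0.0436). Of 4 genes for ceramide transport and sphingomyelin synthesis, SGMS2, a sphingomyelin synthase also found at the plasma membrane, differed by 0.19 in HIF-2α against HIF-1α knockdown (SE 0.06, limma adjusted p = 0.125). Among the glycosphingolipid genes, PLEKHA8, which carries glucosylceramide in the Golgi, differed by 0.19 in HIF-2α knockdown against wild type (SE 0.06, limma adjusted p = 0.176). Among 18 breakdown genes the ceramidase ACER3 differed by 0.38 in HIF-1α knockdown against wild type (SE 0.12, limma adjusted p = 0.138). It passed there with the 8 arrays of these groups alone (limma adjusted p = 0.0304), and in HIF-2α against HIF-1α knockdown without HIF-2α knockdown replicate 1 (-0.41, limma adjusted p = 0.0458). The ceramidase ACER2 differed by -0.24 in HIF-2α against HIF-1α knockdown (SE 0.08, limma adjusted p = 0.129). Among 12 genes of sphingosine 1-phosphate, SGPL1, the lyase that ends the pathway, differed by 0.16 in HIF-1α knockdown against wild type (SE 0.07, limma adjusted p = 0.337). MFSD2B, an exporter of sphingosine 1-phosphate, differed by -0.16 in HIF-2α knockdown against wild type (SE 0.09, limma adjusted p = 0.503).

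**Figure D3:**
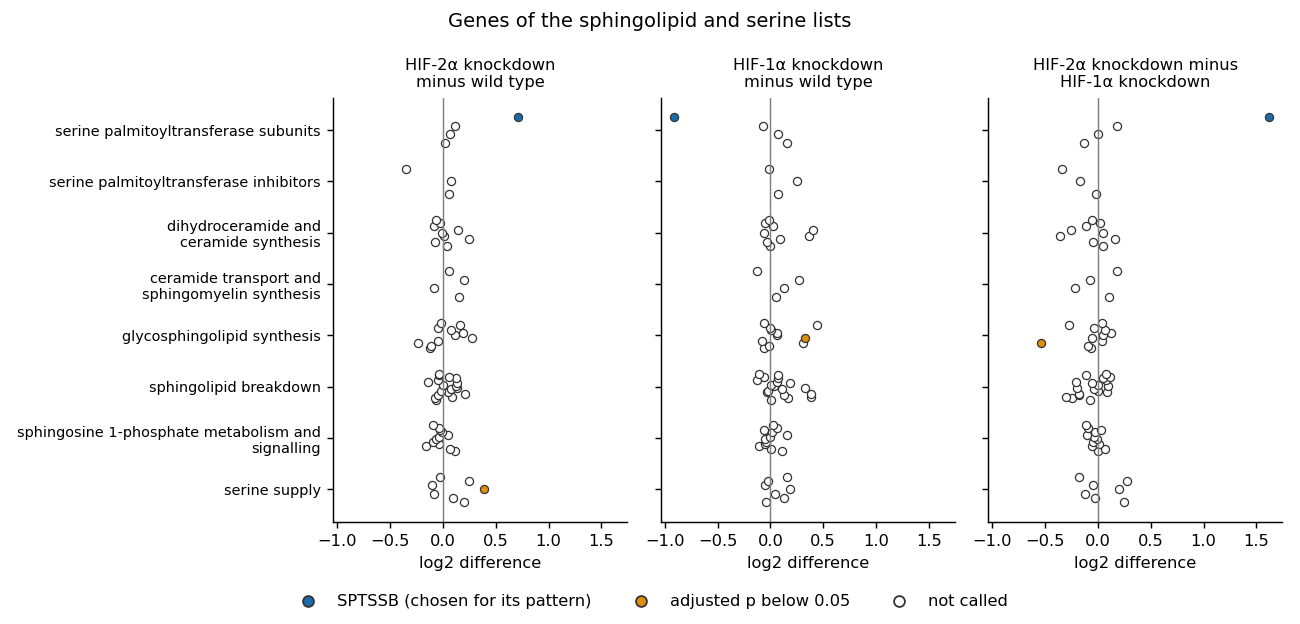
Log2 differences of the 68 measured genes of the 8 lists in the 3 comparisons, 1 point per gene, with vertical spread for legibility alone. SPTSSB lies outside the range of all other genes in each panel, and the called genes are SHMT1 at 0.39, B4GALT6 at 0.33 and B4GALNT1 at -0.54.

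Genes with a profile like that of SPTSSB were looked for over all 12 arrays. The measure was the root mean square difference on the log2 scale after each gene's own mean was taken off, so that genes of like direction and size come first. CDO1, cysteine dioxygenase, was the closest of 18403 genes at 0.188, against a median of 0.685 over all genes and 0.674 for a flat line. It had means of 9.38 in HIF-2α knockdown, 7.95 in HIF-1α knockdown and 8.61 in wild type. LRRTM4, a leucine-rich repeat membrane protein, followed at 0.227, then the fibrinogen chains FGG at 0.239 and FGA at 0.253, and HIF1A itself at 0.269.

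These 5 genes did not share every step with SPTSSB. CDO1 and FGG were above wild type in HIF-2α knockdown by 0.77 and 0.60, close to the 0.71 of SPTSSB. LRRTM4, FGA and HIF1A had means above it by 0.23, 0.34 and 0.24, but the arrays of FGA and of HIF1A overlapped those of wild type. In HIF-1α knockdown the log2 differences of the 5 genes from wild type ran from -1.23 for HIF1A to -0.66 for CDO1, and HIF1A is the gene targeted there. In the pathway lists the closest were SLC1A4 at 0.582 and PHGDH at 0.597, at places 407 and 613 of 18403. The 5 genes were found on the arrays that had singled out SPTSSB, and no test is attached to their likeness.

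**Figure D4:**
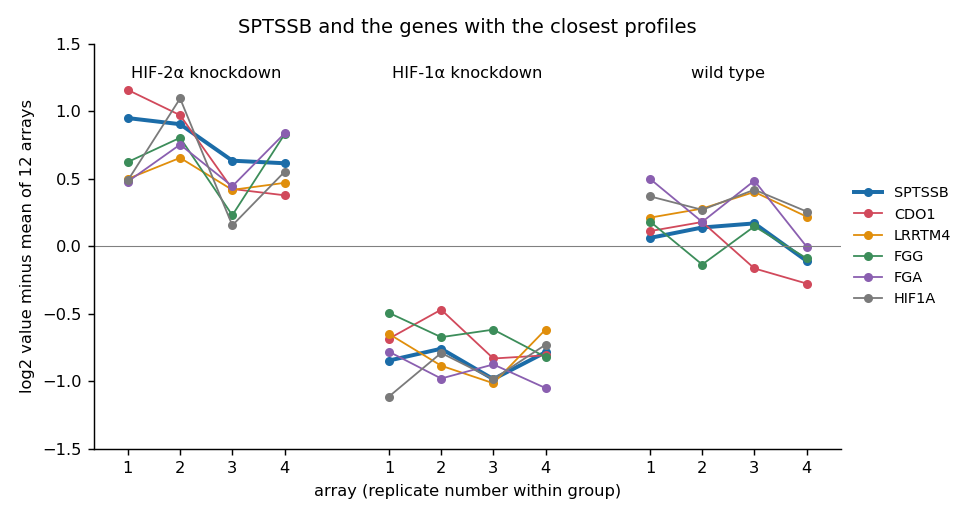
Log2 values minus each gene's mean over the 12 arrays, for SPTSSB (thick line) and the 5 genes with the smallest root mean square difference from it, by replicate within each group; lines join arrays of a group for legibility and replicates have no order. All 6 genes lie below 0 on every HIF-1α knockdown array and above 0 on every HIF-2α knockdown array.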

How the data were processed

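Gene expression was measured on 12 Affymetrix arrays of total RNA that, per the labels' protocols, was amplified and labelled with biotin. The authors deposited 1 table of log2 values for 32321 probe sets; base 2 was inferred from the range, 5.93 to 15.1. Background correction, summarization and normalization: not given in the sources used here. Depth is not defined for arrays, and their number limits the precision.

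Gene names came from the platform annotation, where 19158 probe sets had 1 symbol, 1388 several and 11775 none. Symbols were updated through RefSeq (assembly GRCh38.p14), 19128 of them by Entrez identifier. The brightest probe set with 1 symbol stood for each of 18404 genes. The members, the lists and the naming rule were chosen with earlier results of these data known. The rule names the members, called genes of the lists, otherwise the 2 genes of a list with the smallest p, the targeted genes and the genes most like SPTSSB.

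Groups were compared with limma 3.58.1 in R 4.3.3 (lmFit on 3 group means over 12 arrays, eBayes, no filter). Adjusted p is Benjamini-Hochberg over all 18404 genes, with 0.05 as the threshold. The script was tested on simulated data. Alternatives were quantile normalization, median centring, a filter on dim genes, other probe set choices, fewer arrays, array weights and a replicate block.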

Additional observations from a re-analysis of the deposited data

Results flagged for a closer look

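SPTSSB moved in opposite directions in the knockdowns. Every HIF-2α knockdown array lay above every wild type array (log2 difference 0.71) and every HIF-1α knockdown array lay below (log2 difference -0.91). SPTSSB had been chosen for this pattern, so the difference between the directions was not tested.

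In 5 of 87 groups of 4 arrays, taken over all named genes, 1 array stood far from the other 3, where chance gives about 1 in 20 groups. None of them was of SPTSSB or another of the 9 measured members. B4GALNT1 was at 8.05 in wild type replicate 4, against 7.65 to 7.67 on the other wild type arrays. ORMDL2 was at 9.89 in HIF-2α knockdown replicate 2, against 9.64 to 9.66. SLC1A4 was at 10.06 in the same array, against 9.69 to 9.75. ACER2 was at 7.45 in wild type replicate 1, against 7.54 to 7.56. PHGDH was at 10.69 in HIF-1α knockdown replicate 4, against 11.13 to 11.18.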

How the results depend on the processing

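Under all alternatives run the SPTSSB difference was 0.65 to 0.80 for HIF-2α knockdown against wild type. It was -0.97 to -0.86 for HIF-1α knockdown against wild type and 1.56 to 1.67 between the knockdowns. With single arrays left out the ranges were 0.65 to 0.76, -0.97 to -0.86 and 1.56 to 1.67. Quantile normalization, centring and array weights moved each difference by less than the spread between arrays. The filter on dim genes, averaged probe sets, the fit on only the 8 arrays compared and the replicate block leave this difference unchanged by construction. Groups that do not overlap keep their order when arrays are left out. The kept direction is therefore no check of SPTSSB. The 5 genes most like SPTSSB were the same under quantile normalization, median centring and averaged probe sets. Signal over background could not be judged, since no detection calls were used.

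For HIF-2α knockdown against wild type, where 145 genes were called, the count was 404 after quantile normalization (141 higher, 263 lower, against 88 and 57), 72 after centring, 64 with only the 8 arrays compared, 37 without the raised-floor arrays and 61 to 219 with single arrays left out, the extremes being wild type replicates 4 and 3. Of the list genes other than SPTSSB 1 was called, against 3 after quantile normalization, 2 each with averaged probe sets, the replicate block and array weights, 0 without the raised-floor arrays and 1 to 2 with single arrays left out. For HIF-1α knockdown against wild type, with 177 called, the count was 254 after quantile normalization (140 higher, 114 lower, against 150 and 27), 85 after centring, 396 with 8 arrays, 605 with array weights, 22 without the raised-floor arrays and 50 to 483 with single arrays left out, the extremes being HIF-1α knockdown replicate 3 and wild type replicate 3. There 1 such list gene was called, against 2 with 8 arrays, 4 with array weights, 0 without the raised-floor arrays, 0 among genes above the median level and 0 to 4 with single arrays left out. Of the 8 members other than SPTSSB 0 were called there, against 2 with array weights and 0 to 1 with single arrays left out, and 0 under all alternatives run in the other comparisons. Between the knockdowns, with 509 called, the count was 888 after quantile normalization (342 higher, 546 lower, against 178 and 331), 337 after centring, 980 with array weights, 259 without the raised-floor arrays and 211 to 618 with single arrays left out, the extremes being HIF-1α knockdown replicate 3 and HIF-2α knockdown replicate 1; such list genes numbered 1, against 3 after quantile normalization, 2 each with the replicate block and array weights and 1 to 3 with single arrays left out. The cause of these shifts was not tested.

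Small differences changed sign, none of them called. In HIF-2α knockdown against wild type these were, after quantile normalization, SPTLC1 at -0.048, CERS5 at -0.057 and SGPL1 at -0.028, and without the raised-floor arrays CERS2 at -0.059, CERS6 at 0.028, CERS5 at -0.064 and SGPL1 at -0.059. With single arrays left out SPTLC1 ran from -0.035 to 0.12, CERS6 from -0.074 to 0.058, CERS5 from -0.11 to 0.12, CERS2 from -0.021 to 0.12 and ACER3 from -0.027 to 0.19. In HIF-1α knockdown against wild type they were SPTLC2 at -0.0082, CERS2 at 0.079 and PLEKHA8 at -0.0076 after quantile normalization and PLEKHA8 at -0.013 without the raised-floor arrays. With single arrays left out SPTSSA ran from -0.14 to 0.060, CERS2 from -0.070 to 0.073, ORMDL3 from -0.061 to 0.047, PHGDH from -0.098 to 0.075 and SLC1A4 from -0.089 to 0.033. Between the knockdowns they were CERS2 at -0.064 after quantile normalization and MFSD2B at 0.0059 with array weights and 0.023 without the raised-floor arrays. With single arrays left out SPTLC2 ran from -0.040 to 0.055, CERS2 from -0.017 to 0.096, CERS6 from -0.017 to 0.11 and MFSD2B from -0.11 to 0.023.

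Replicate numbers are shared between the groups, and 5 of 12 same-numbered pairs correlated above 0.1 in their deviations (r from -0.17 to 0.64). Differently numbered pairs ran from -0.60 to 0.57. These values do not settle whether the numbers pair the arrays. With the replicate block 202, 234 and 562 genes were called in HIF-2α knockdown against wild type, HIF-1α knockdown against wild type and between the knockdowns. ORMDL3 then passed at -0.34 against wild type and -0.34 against HIF-1α knockdown (limma adjusted p = 0.0129 and 0.008).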
